A study of Sus scrofa with 12 samples.

Results

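The genes described here encode the CD3 chains of the T cell receptor complex (CD3D, CD3E and CD3G), the coreceptors CD4, CD8A and CD8B, the surface receptors CD2 and CD5, and the kinases LCK and ZAP70. A gene was included when the array's annotation gave its symbol to a probe set, and of several probe sets the brightest, by mean log2 value over all arrays, stands for the gene. Of the 10 genes listed, 8 had a probe set, with 21 probe sets in all, out of 12161 genes and 47845 probe sets. CD5, a receptor that dampens T cell receptor signals, and ZAP70, the kinase recruited to phosphorylated receptor chains, had no probe set of that symbol and were not analysed here. The series measured transcripts in the ileal mucosa of 12 pigs (Sus scrofa) aged 140 days on 1-colour Affymetrix arrays. Feed efficiency is the growth an animal gains from the feed it eats, and 6 pigs were labelled high and 6 low, each group with 3 males and 3 females. In both groups pigs 1, 2 and 3 were male and pigs 4, 5 and 6 female. The labels give no breed, diet or treatment, and the groups differ in a trait observed in the animals.

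T cells recognise peptides held by MHC molecules through a receptor whose antigen-binding chains carry no signalling parts of their own. The CD3 chains pass the signal into the cell, CD4 binds MHC class II on helper cells, CD8 binds MHC class I on cytotoxic cells, and LCK, which both coreceptors carry, phosphorylates the CD3 chains. In the ileum of the pig, T cells lie between epithelial cells, in the lamina propria and in the Peyer's patches, which are also rich in B cells. Mucosa was measured whole, so fewer T cells and less RNA per T cell cannot be told apart in any of the values that follow.

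The tissue carried the transcripts that mark ileum. FABP6 and SLC10A2, the bile acid binding protein and bile acid transporter of ileal enterocytes, had mean log2 values of 12.65 and 10.18. Probe sets of background controls on these arrays had means from 1.22 to 7.74, so a low value cannot be read as a signal or as its absence. Of the 21 T cell probe sets, 8 had a mean above that range, among them those representing CD3D, CD3E, CD4, CD2 and LCK. The probe sets representing CD3G, CD8A and CD8B had means of 6.55, 7.43 and 5.91, inside it. Pairwise correlations between arrays ran from 0.852 to 0.973, and the array of high feed efficiency pig 1 had the lowest median correlation with the others, 0.899. That pig's enterocyte and epithelial markers lay 1.76 below the mean of all pigs on the log2 scale, averaged over 17 genes, against -0.35 to 0.72 in the others.

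The main question of the series is what differs in the ileum with feed efficiency. None of the 8 T cell genes passed the test between the groups. The estimates of high minus low, from a linear model with feed efficiency and sex fitted in limma, lay between -0.20 and 0.12 on the log2 scale, 4 above 0 and 4 below, or 3 above and 5 below with arrays centred on their median. No gene and none of the 21 probe sets passed an adjusted p of 0.05, where 0% of all 33405 probe sets tested did. None of the 8 genes and none of the 21 probe sets had an unadjusted p under 0.05, which 3.17% of all probe sets reached. The median difference was -0.02 over the 8 genes and -0.01 over all 12161 genes. Values of the high and low groups overlapped for every one of the 21 probe sets.

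Among the CD3 chains, CD3D ranged from 9.13 to 10.05 in high feed efficiency with a median of 9.59. In low feed efficiency it ranged from 8.94 to 10.09 with a median of 9.81. The low group thus held both the lowest and the highest pig, numbers 2 and 4, and the high group lay inside its range. The CD3D log2 difference was -0.15 ± 0.18 (SE from 6 pigs per group), with a 95% interval from -0.55 to 0.25 (limma adjusted p = 0.9995).

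CD3E, the chain that pairs with both of the other CD3 chains, ranged from 8.50 to 9.87 in high feed efficiency with a median of 9.14. In low feed efficiency its values ran from 8.58 to 9.51 with a median of 9.39. High feed efficiency pigs 1 and 2 and low feed efficiency pig 2, all males, lay well below the other 9 pigs, which ran from 9.10 upwards. The difference was -0.20 ± 0.20 with an interval from -0.63 to 0.23 (limma adjusted p = 0.9995).

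CD3G ranged from 5.64 to 6.89 in high feed efficiency, with a median of 6.50, and from 5.89 to 7.24 in low feed efficiency, with a median of 6.75 (limma difference -0.18 ± 0.25, interval -0.73 to 0.36, adjusted p = 0.9995). Pig 2 was the lowest of its group in both groups and pig 4 the highest.

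**Figure D1:**
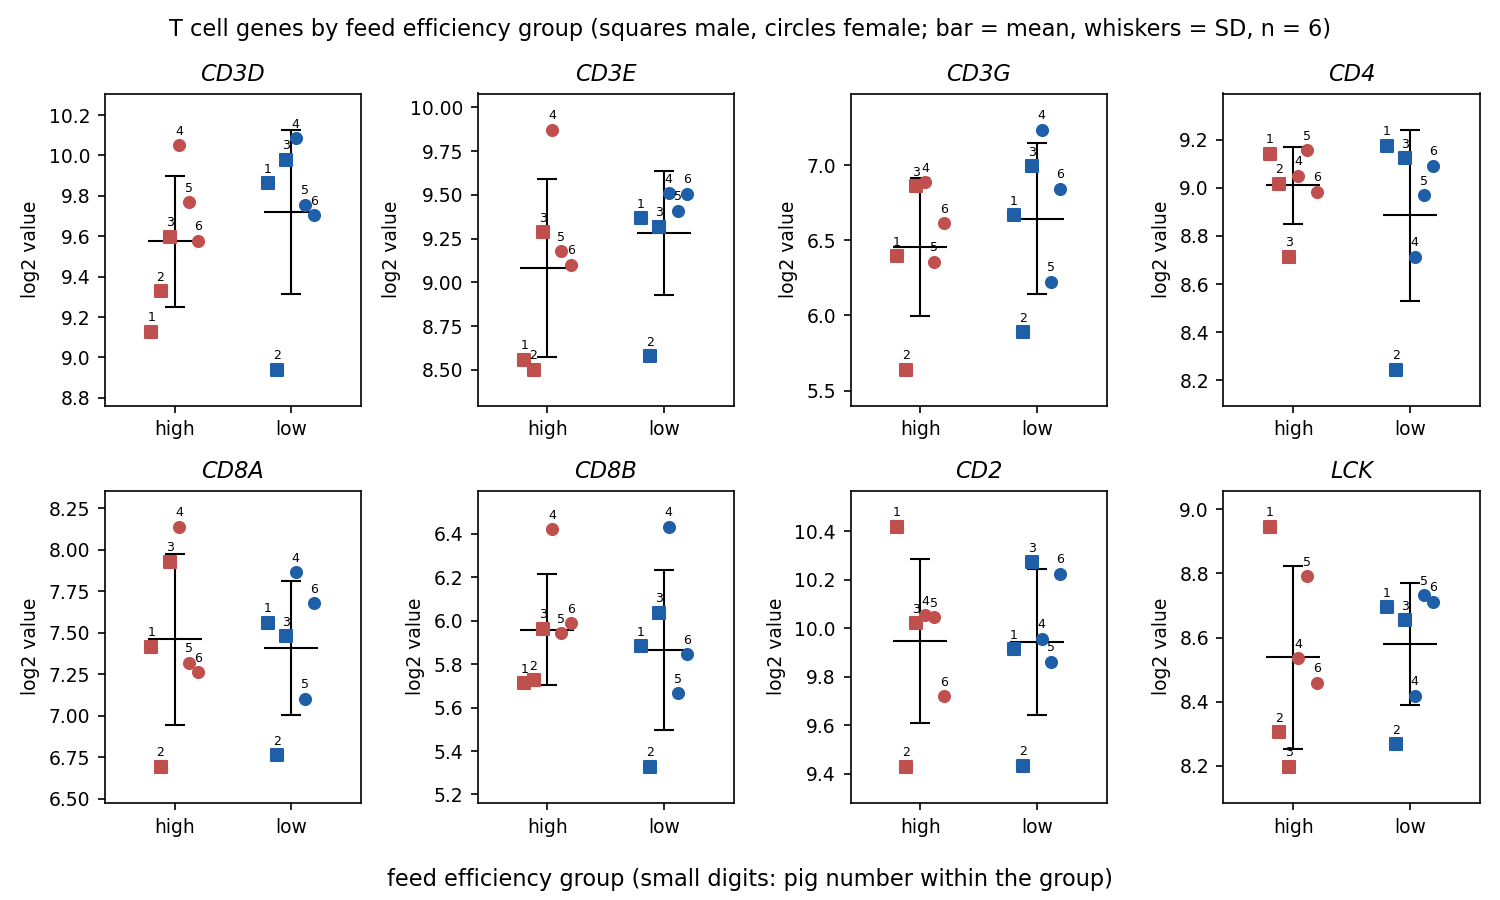
Log2 value of the 8 T cell genes (y axis) in high and low feed efficiency (x axis), 1 point per pig with its number, squares for males and circles for females. Bars are group means and whiskers SDs (n = 6). The groups overlap for every gene, and low feed efficiency pig 2 lies lowest of its group in all 8 panels.

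CD4, the coreceptor of helper T cells, had nearly equal medians, 9.03 in both groups. Its values ran from 8.71 to 9.16 in high and from 8.24 to 9.17 in low feed efficiency. Low feed efficiency pig 2 was the lowest by a wide margin, and without it the estimate of high minus low, 0.12 ± 0.16 (interval -0.23 to 0.48), became -0.01. CD4 passed the threshold in neither fit (limma adjusted p = 0.9995 with all pigs and 0.9972 without that pig).

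CD8A encodes the chain found in both forms of CD8, and CD8B the partner chain typical of conventional cytotoxic T cells. CD8A ranged from 6.69 to 8.14 in high feed efficiency, with a median of 7.37, and from 6.76 to 7.86 in low feed efficiency, with a median of 7.52. CD8B ranged from 5.71 to 6.42 with a median of 5.95 in the high group and from 5.33 to 6.43 with a median of 5.86 in the low group. For both genes pig 4 was the highest in each group, and the groups overlapped almost fully. The differences were 0.05 ± 0.25 for CD8A (interval -0.48 to 0.59) and 0.09 ± 0.17 for CD8B (interval -0.27 to 0.46), both with a limma adjusted p of 0.9995.

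CD2, an adhesion receptor that helps T cells and natural killer cells bind other cells, ranged from 9.43 to 10.42 in high feed efficiency with a median of 10.03. In low feed efficiency it ranged from 9.43 to 10.27 with a median of 9.94. The 2 lowest pigs, 1 in each group, had the same value to 2 decimals. The difference was 0.00 ± 0.19 with an interval from -0.40 to 0.41 (limma adjusted p = 0.9995).

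LCK varied least of the 8 genes, with an SD of 0.233 over all pigs. It ranged from 8.20 to 8.95 in high feed efficiency, with a median of 8.50, and from 8.27 to 8.73 in low feed efficiency, with a median of 8.67. High feed efficiency pigs held both extremes, number 3 the lowest and number 1 the highest. The difference was -0.04 ± 0.15 with an interval from -0.36 to 0.28 (limma adjusted p = 0.9995). The intervals of the 8 genes reach down to -0.73, for CD3G, and up to 0.59, for CD8A, so a p that misses the threshold does not show that the groups are alike.

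For 7 of the 8 genes at least 1 further probe set gave an estimate of the other sign. The widest gap was at LCK, whose second probe set gave a high minus low difference of 0.35 ± 0.22 against -0.04 for the first (limma adjusted p = 0.9995 for both). In that second probe set the difference was 0.74 in males and -0.03 in females, and the difference between the sexes, -0.77, did not pass the threshold (limma adjusted p = 0.9996).

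**Figure D2:**
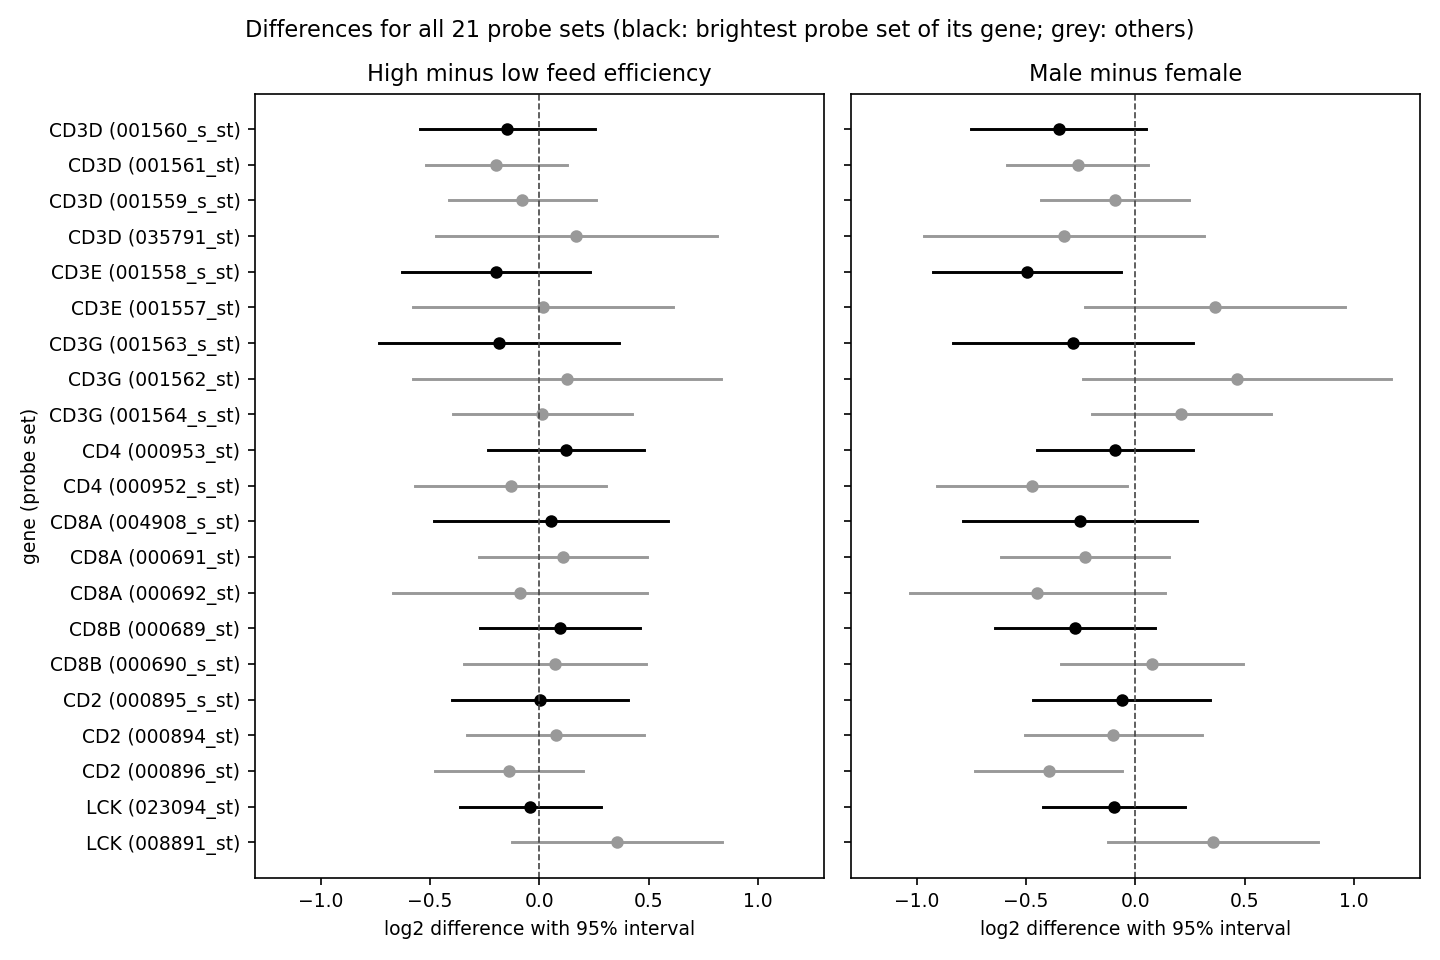
Log2 difference (x axis) of all 21 probe sets of the 8 T cell genes (y axis), high minus low feed efficiency on the left and male minus female on the right. Points are limma estimates and lines 95% intervals, black for the probe set that represents its gene. Every interval for feed efficiency includes 0, and 3 intervals for sex lie below it.

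In the comparison of the sexes the estimate of male minus female was below 0 for all 8 genes, with a median of -0.26 against -0.03 over all 12161 genes, but for CD4 and CD2 it was 0.0009 and 0.04 after quantile normalization. None passed an adjusted p of 0.05, as 0.0329% of all probe sets did. An unadjusted p under 0.05 was reached by 1 of the 8 genes and by 3 of the 21 probe sets, against 19% of all probe sets. Of the 21 probe sets, 16 had estimates below 0 and 5 above it. The CD3G and LCK estimates were 0.13 and 0.13 when all probe sets of the gene were averaged.

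On the probe set that stands for each gene, CD3E had the sex estimate farthest from 0, but with the mean over its probe sets it was -0.07, closer to 0 than for the other 7 genes. Its values ran from 8.50 to 9.37 in males, with a median of 8.93, and from 9.10 to 9.87 in females, with a median of 9.46. High feed efficiency pigs 1 and 2 and low feed efficiency pig 2 lay below all females, and the other 3 males lay among them. The difference was -0.50 ± 0.20 (SE, n = 6 per sex) with an interval from -0.93 to -0.07 (limma adjusted p = 0.206). The other CD3E probe set, with a mean of 5.41, gave 0.36 ± 0.27, and the pair correlated across pigs with r = 0.214.

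CD3D followed with -0.35 ± 0.18 (limma adjusted p = 0.324). Males ran from 8.94 to 9.98 with a median of 9.46 and females from 9.58 to 10.09 with a median of 9.76, so the upper part of the males overlapped the females. The estimates were -0.29 ± 0.25 for CD3G, -0.28 ± 0.17 for CD8B and -0.25 ± 0.25 for CD8A. CD4, LCK and CD2 had smaller ones, at -0.09 ± 0.16, -0.10 ± 0.15 and -0.06 ± 0.19, and the limma adjusted p of these 6 genes was at least 0.401.

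Sex overlapped with the range of pig identifiers, since 317 to 324 held 4 females and no male, and 301 to 310 held 6 males and 2 females. Within 301 to 310, which holds both sexes, the male minus female estimates were -0.76 for CD3E, -0.60 for CD3D, -0.65 for CD3G, -0.70 for CD8A and -0.65 for CD8B. The 2 females of that range are the pigs numbered 4, which were the highest of their group for these 5 genes. The estimates for CD4 and LCK in that range were 0.02 and 0.03, and none of the 8 passed (limma adjusted p at least 0.259). Without low feed efficiency pig 2 the CD3E estimate was -0.39 and the CD3D estimate -0.22.

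Sex estimates for markers of other cells went both ways. The male minus female estimate was below 0 for 14 of 17 enterocyte and epithelial markers and for 13 of 15 macrophage and dendritic cell markers (all 15 with arrays centred on their median). Of the latter, 9 had an unadjusted p under 0.05 in limma, which 19% of all probe sets reached. The estimate was above 0 for 10 of 15 B cell and germinal centre markers, with a median of 0.17, and for 7 of 10 proliferation markers (6 with arrays centred on their median). Of all 12161 genes, 6768 had a sex estimate below 0 and 5393 one above it. The epithelial score, a mean deviation over the list, ran from -1.76 to 0.50 in males and from -0.12 to 0.72 in females. With that score in the model the sex estimate of CD3E was -0.32 and that of CD3D -0.18. The B cell score ran from -1.08 to 0.81 in males. In females it ran from -0.50 to 0.72 apart from low feed efficiency pig 4, at -2.15, and the marker counts were not taken again without that pig. The B cell score was also fitted as a term, and no T cell gene passed for sex with either score. The part of these other cells in the T cell values was not tested beyond these terms.

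The feed efficiency difference was also compared between the sexes. With limma, 0 of the 8 genes passed an adjusted p of 0.05, as did 0% of all probe sets, and 0 had an unadjusted p under 0.05, which 2.76% of all probe sets reached. CD3E gave high minus low differences of -0.31 in males and -0.09 in females, and CD3D -0.24 and -0.05. The differences between the sexes were 0.21 ± 0.41 for CD3E and 0.19 ± 0.38 for CD3D, so their errors were larger than the estimates.

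Single pigs spread more widely than the group means. The mean deviation of the 8 genes from their means over all pigs was -0.02 ± 0.26 (SD over 6 pigs) in the high group and 0.02 ± 0.32 in the low group. By sex it was -0.12 ± 0.32 for males and 0.12 ± 0.17 for females. Low feed efficiency pig 2, a male, lay lowest at -0.59 and was among the lowest 3 pigs for all 8 genes. High feed efficiency pig 2, also a male, came next at -0.44, among the lowest 3 for 6 genes and the very lowest for 4. At the other end lay the females numbered 4, at 0.35 in high and 0.26 in low feed efficiency, each among the highest 3 for 5 genes. Low feed efficiency pig 3 was above the median for every one of the 8 genes.

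High feed efficiency pig 1 had a mean of -0.06, but its genes went apart. It had the highest CD2 and LCK of all pigs, 10.42 and 8.95, and was among the lowest 3 for CD3D and CD3E, with 9.13 and 8.56. This is the pig with the low epithelial score, and the part of that score in these values was not tested. Low feed efficiency pig 4 was highest for CD3D, CD3G and CD8B and among the lowest 3 for CD4.

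**Figure D3:**
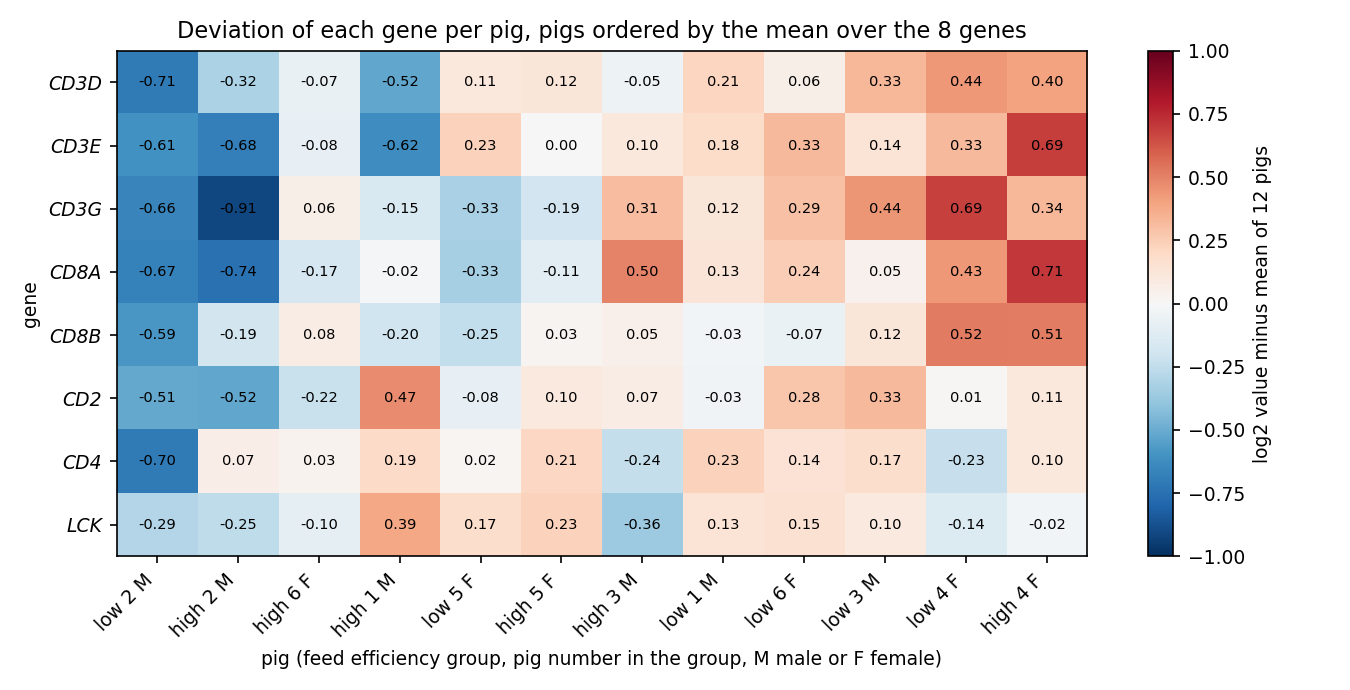
Deviation of each T cell gene (rows) in each pig (columns) from the gene's mean over all 12 pigs, in log2 units given in the cells, with pigs ordered by the mean of their column. The CD3 and CD8 rows run from low at the left to high at the right, and the CD4 and LCK rows do not follow the same order.

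The CD3 and CD8 genes varied together over the pigs. All 10 pairs among CD3D, CD3E, CD3G, CD8A and CD8B had a Pearson r of 0.679 or more, up to 0.895, and all 10 passed an adjusted p of 0.05 in permutation tests of 28 pairs with 100000 resamples each (two-sided). Of these 10 pairs, 7 also passed by Spearman's rho. The pairs were computed on the probe set that represents each gene. With the mean over all probe sets of a gene, 4 of the 10 passed.

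CD3D and CD3E, neighbouring genes in the pig assembly Sscrofa11.1, had r = 0.895 (permutation p = 0.00022, adjusted 0.00308) and rho = 0.825 (permutation p = 0.00167, adjusted 0.0156). CD3G and CD8A, whose products sit in the receptor complex and the coreceptor, had r = 0.891 (permutation p = 0.00015, adjusted 0.00308) and rho = 0.874 (permutation p = 0.00036, adjusted 0.0101). CD8A and CD8B, which form the CD8 heterodimer and also neighbour each other, had r = 0.797 (permutation p = 0.00234, adjusted 0.014) and rho = 0.678 (permutation p = 0.0183, adjusted 0.057). When the 2 pigs farthest from the median of the first gene were left out, r was 0.823, 0.745 and 0.773 for these 3 pairs.

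The relation among the CD3 and CD8 genes was computed again within the sexes and an identifier range. Over the 10 pairs r ran from 0.609 to 0.916 in males, from 0.505 to 0.845 in females and from 0.749 to 0.915 within identifiers 301 to 310, while 317 to 324 held too few pigs for a value. After removal of the feed efficiency and sex terms it ran from 0.679 to 0.917. Without low feed efficiency pig 2 the 10 values ran from 0.554 to 0.881 and 6 passed.

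CD4 and LCK did not follow the CD3 and CD8 genes. Their 10 pairs with those genes had an r from -0.009 to 0.436 and none passed, and without low feed efficiency pig 2 all 10 were below 0, from -0.385 to -0.055. In females they ran from -0.727 to -0.123 and in males from 0.057 to 0.706, a difference that was not tested. CD4 and LCK correlated with each other, with r = 0.717 (permutation p = 0.00406, adjusted 0.0142) and rho = 0.741 (permutation p = 0.00799, adjusted 0.0384). That value was 0.61 without the 2 pigs farthest from the CD4 median, 0.705 in males, 0.727 in females and 0.36 with the mean over all probe sets.

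CD2 stood between the sets. It passed with CD8A (r = 0.654, permutation p = 0.0211, adjusted 0.0438; rho = 0.601, permutation p = 0.0428, adjusted 0.109), with CD3G (r = 0.649, permutation p = 0.0219, adjusted 0.0438; rho = 0.566, permutation p = 0.0588, adjusted 0.137) and with LCK (r = 0.684, permutation p = 0.0141, adjusted 0.0359; rho = 0.552, permutation p = 0.0658, adjusted 0.142). None of these 3 passed by rho, and without the 2 farthest pigs r was 0.568, 0.081 and 0.489, so the relation to CD3G rested on those pigs, number 2 of each group. Its r was 0.383 with CD3D, 0.403 with CD3E, 0.383 with CD8B and 0.561 with CD4, none past the threshold.

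Over all 28 pairs, 14 passed by Pearson's r and 8 by Spearman's rho, 27 had an r above 0, and the median r was 0.605. Of all 73938880 pairs that the 12161 genes form, 7.01% had an r at or above that median. Without low feed efficiency pig 2 the median over the 28 pairs was 0.40, 18.6% of all pairs were at or above it, and 7 of the 28 pairs passed.

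**Figure D4:**
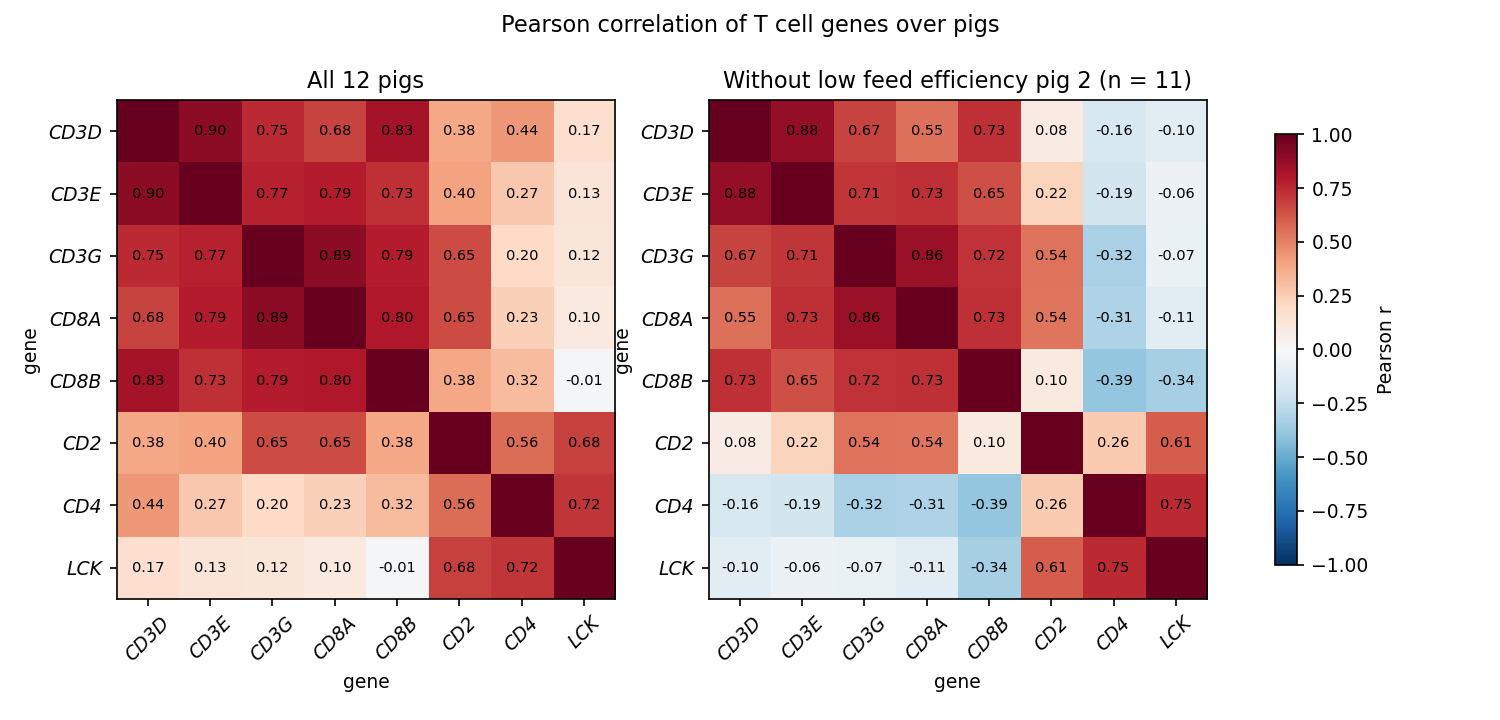
Pearson r over pigs for each pair of T cell genes, with all 12 pigs on the left and without low feed efficiency pig 2 on the right, with the value in each cell. The CD3 and CD8 genes form a block of values from 0.554 upwards in both panels, and on the right CD4 and LCK are below 0 against every gene of that block.

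Probe sets of the same gene varied together to unequal degrees. Over 19 pairs within a gene the median r was 0.717, all 19 were above 0, and 12 passed an adjusted p of 0.05 in permutation tests. The leading pair of CD2 reached r = 0.952 and that of CD3D 0.927. The 3 probe sets of CD8A correlated with r from 0.803 to 0.905. The pairs of CD3E and LCK had r = 0.214 and 0.35, neither past the threshold, and the probe set that stands for CD3G had r = 0.353 and 0.449 with its other 2 and that for CD8B r = 0.513 with its other, none past it either. By Spearman's rho the CD8B pair (0.657, permutation adjusted p = 0.0417) and the CD3G pair of r = 0.449 (0.678, permutation adjusted p = 0.0409) did pass. The other 2 probe sets of CD3G had r = 0.713 with each other. The CD4 pair had r = 0.717, which was 0.117 without the 2 farthest pigs. The values of CD3E and LCK therefore rest on a single probe set each, while r and rho differ for CD3G and CD8B.

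As a description, each gene was set against the mean deviation of the other 7 over the 12 pigs. CD3G, CD8A, CD3D, CD3E and CD8B had r from 0.781 to 0.839, CD2 0.667, CD4 0.434 and LCK 0.29. The mean profile of the 8 genes was then set against 12153 other genes measured on the same arrays, of which 0.642% had an r above 0.8 and whose median r was 0.02. The highest were TRIM21 (0.928), an antibody receptor in the cytosol, and JAML (0.922), an adhesion molecule of leukocytes. LYVE1, a lymphatic vessel receptor, had 0.911, DHRS7C 0.909, ADAMTS15 0.897 and CD52, a surface glycoprotein of lymphocytes, 0.89. SLC37A1 had 0.887, USP18, which removes the ISG15 tag from proteins, 0.881, CPT2, a mitochondrial enzyme of fatty acid oxidation, 0.875 and ZNF219 0.874. The genes with the lowest r over all 12 pigs were RAPGEF2 (-0.895), KLHL11 (-0.893), TOPBP1 (-0.883), CNOT6 (-0.879) and SLA-1 (-0.878). SLA-1 is a pig MHC class I gene whose probes may also bind related class I transcripts.

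Further genes of T cell signalling were taken from a list of costimulatory and signalling genes, of which 33 of 40 were measured. In high minus low feed efficiency 18 were above 0 and 15 below, and with limma none passed the adjusted threshold or an unadjusted p of 0.05. CSK, the kinase that inhibits LCK, had a difference of 0.30 ± 0.15, and PLCG1, the phospholipase activated downstream of the receptor, one of 0.17 ± 0.12 (limma adjusted p = 0.9995 for both). The CSK estimate was 0.15 with the mean over its probe sets, and the PLCG1 estimate 0.09 without high feed efficiency pig 1 and 0.04 in females alone. CD247, the zeta chain that completes the receptor complex, had a mean of 8.99 ± 0.30 (SD over 6 pigs) in the high group and 9.12 ± 0.52 in the low group. For sex, 13 genes were above 0 and 20 below, with none past the adjusted threshold. Of the former 4 and of the latter 1 had an unadjusted limma p under 0.05, which 19% of all probe sets reached. The male minus female estimate was 0.83 ± 0.24 for PTPRC, the phosphatase CD45, and 0.41 ± 0.12 for PAG1, an adaptor that binds CSK (limma adjusted p = 0.12 and 0.127).

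Of 33 transcription factor and homing receptor genes of T cells, 27 were measured, 13 above and 14 below 0 for feed efficiency (10 and 17 with arrays centred on their median), and with limma none had an adjusted or unadjusted p under 0.05. GATA3, the factor of T helper 2 cells, had -0.25 ± 0.15 and IL7R, the receptor for the survival cytokine IL-7, 0.29 ± 0.19 (limma adjusted p = 0.9995 for both). The GATA3 estimate was -0.10 with the mean over its probe sets. The IL7R estimate was 0.16 without high feed efficiency pig 1, 0.54 in males alone and 0.03 in females alone. For sex 20 of the 27 were below 0 and 7 above, and 5 of the former and 2 of the latter had an unadjusted p under 0.05, which 19% of all probe sets reached. The homing receptor CXCR6 had a male minus female estimate of -1.001 ± 0.283 (limma adjusted p = 0.118) and CD40LG, the ligand by which helper T cells activate B cells, -0.75 ± 0.24 (limma adjusted p = 0.144). CXCR6 passed only when low feed efficiency pig 1 was left out, with -1.23 and a limma adjusted p of 0.0452, among all settings tried.

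Among the lists set beside the 8 genes, that of cytotoxic, gamma delta T and natural killer cell genes had the highest Pearson r with them. Of its 27 genes 19 were measured, none of them a constant gene of the gamma delta receptor. For feed efficiency 8 were above and 11 below 0. The protease gene GZMM had 0.35 ± 0.11 and the granzyme gene GZMA -0.60 ± 0.46 (limma adjusted p = 0.9995 for both). GZMM was the sole gene of the list with an unadjusted limma p under 0.05, which 3.17% of all probe sets reached. The GZMM estimate was 0.04 with the mean over its probe sets. The GZMA estimate was -0.25 without high feed efficiency pig 1, the pig with the low epithelial score, and -0.03 with that score as a term. For sex 17 of 19 were below 0, with a median of -0.48, and 6 had an unadjusted p under 0.05, which 19% of all probe sets reached. The signalling adaptors FCER1G and TYROBP, which myeloid cells also carry, had -0.84 ± 0.22 and -1.03 ± 0.31 (limma adjusted p = 0.107 and 0.129).

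The mean deviation of that list correlated with the mean profile of the 8 T cell genes with r = 0.761 and rho = 0.839 over 12 pigs, and with r = 0.741 without the 2 farthest pigs, values given as a description since all lists share the same arrays. Scores of the epithelial markers had r = 0.495 and rho = 0.839. B cell and germinal centre markers had r = -0.49 and rho = -0.664, and proliferation markers r = -0.637 and rho = -0.692. The list of costimulatory genes, although of T cells, had r = -0.084, which was -0.522 without the 2 farthest pigs, and that of transcription factors and homing receptors r = 0.599, which was 0.15 without the 2 farthest pigs.

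The score of the B cell markers was -2.15 in low feed efficiency pig 4 and -1.08 in high feed efficiency pig 3 and reached 0.81 in high feed efficiency pig 2. Low feed efficiency pig 4 is among the pigs with the highest CD3 and CD8 values and high feed efficiency pig 2 among those with the lowest. Other pigs did not follow that order. Low feed efficiency pig 2, with the lowest mean deviation of the 8 genes, -0.59, had a B cell score of 0.25. High feed efficiency pig 3 had a mean deviation of 0.05. All 15 B cell markers measured had a feed efficiency estimate above 0 and all 17 epithelial markers one below 0 (16 after quantile normalization), none past the adjusted threshold in limma. Of all 12161 genes, 5775 were above 0 and 6386 below. Apart from pig 4, at -2.15, the B cell scores of the low group ran from -0.33 to 0.72, and the high group from -1.08 to 0.81. Apart from pig 1, at -1.76, the epithelial scores of the high group ran from -0.35 to 0.55, and the low group from -0.32 to 0.72. The counts were not taken again without these pigs. With the B cell score as a term the feed efficiency estimates of the 8 genes ran from -0.15 to 0.16, and with the epithelial score from -0.14 to 0.22. No T cell gene passed in either fit.

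**Figure D5:**
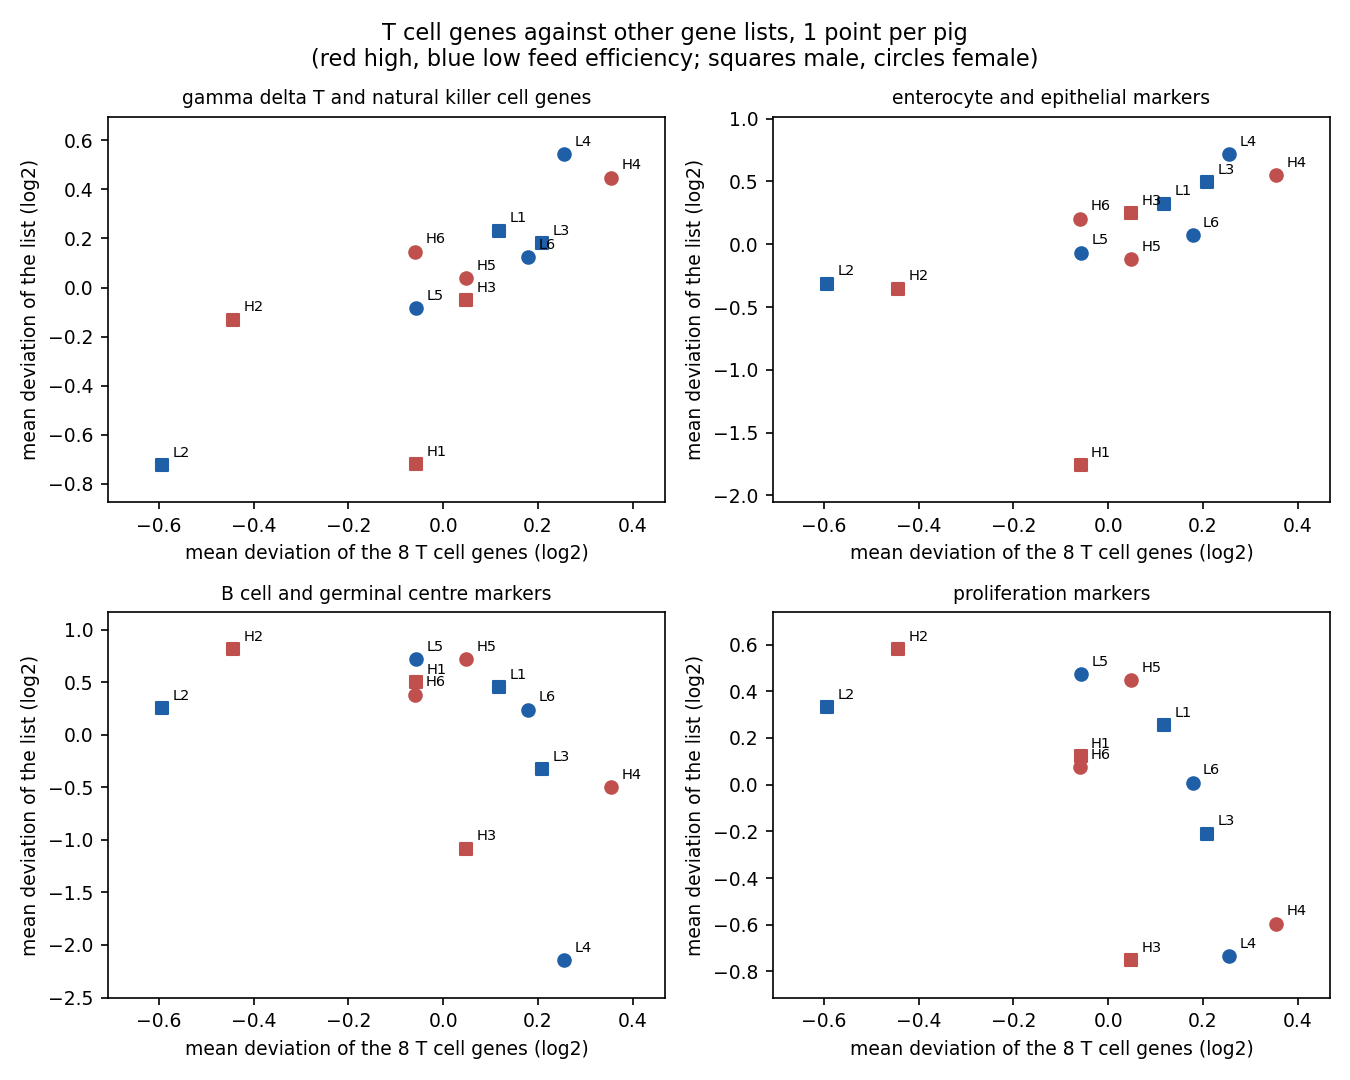
Mean log2 deviation of 4 gene lists (y axes) against the mean log2 deviation of the 8 T cell genes (x axes), 1 point per pig, H for high and L for low feed efficiency, squares for males and circles for females. Cytotoxic and natural killer cell genes increase along the x axis, B cell and proliferation markers decrease, and high feed efficiency pig 1 lies far below the rest in the epithelial panel.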

How the data were processed

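Total RNA of ileal mucosa was isolated with Qiazol, treated with DNase, column-purified and transcribed with the Ambion WT Expression Kit, per the labels' protocols. The authors deposited log2 values for 47845 probe sets on 12 arrays, and the scale was read from the values, which end at 14.24. GCOS 1.1.1 is named in the submitters' processing notes, while the sources used here do not give the background correction, probe summary or normalization. The values were used as deposited. Control probe sets (123) and the dimmest 30% of the rest, those of a mean under 2.67, were left out, which kept all 21 T cell probe sets. Names came from the platform's annotation, updated through the pig gene table. limma 3.58.1 in R 4.3.3 fitted feed efficiency and sex to 33405 probe sets, with Benjamini-Hochberg adjustment over all of them. The number of arrays limits the precision. Each array is a separate pig, and no scan date is given. Correlations and their permutation tests, with 100000 resamples, used NumPy 2.4.6, with ranks and the adjustment of p from SciPy 1.17.1. Scores are mean deviations over a list's genes. Genes of lists were named by smallest p, 2 for each comparison, for the 3 T cell lists, and those most like the mean profile by r, 10 highest and 5 lowest. The scripts were tested on simulated data. The genes, lists and tests were chosen with earlier results of these data known. Alternatives were other filters, normalizations, variance models, weights, terms, subsets and probe set rules, and each pig left out in turn. Leaving out 2 arrays together and all alternatives for the correlations were added after the data were seen.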

Additional observations from a re-analysis of the deposited data

Results flagged for a closer look

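The values of the 8 T cell genes within each feed efficiency group were searched for a pig far from the others, and 2 of 16 groups held one. Chance alone gives about 1 in 20 such groups. The 2 flagged groups, of CD3D and CD3E, are not independent, since these genes correlated over the pigs with r = 0.895. Both flags fell on low feed efficiency pig 2. Its CD3D value, 8.94, was the lowest of its group, with the next pig at 9.70, and the gap was 0.667 of the group's range, above the critical value of Dixon's test. Its CD3E value, 8.58, was also the lowest, with the next pig at 9.32 and a gap of 0.795 of the range. The other probe sets were not searched.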

How the results depend on the processing

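The count of T cell genes past the threshold stayed at 0 for feed efficiency, sex and the difference between the sexes under every alternative run, a threshold of 0.1 included. Signs of estimates did turn, and the cause was not tested. Some were small in the main model, but CD3G had -0.29 there for sex and CD3D -0.15 for feed efficiency. For male minus female, quantile normalization gave CD4 0.0009 and CD2 0.0398, high feed efficiency pigs alone CD2 0.0154, and the identifier range as a term, like that range alone, CD4 0.0202 and LCK 0.0331. The mean over probe sets gave CD3G 0.13 and LCK 0.13, and leaving out 2 arrays together (high feed efficiency pig 1 and low feed efficiency pig 2) CD4 0.0126. For high minus low, median centring gave CD2 -0.0138, array weights CD8A -0.0923 and CD2 -0.152, females alone CD2 -0.0745, and the epithelial score as a term CD3D 0.0089 and CD2 -0.0387. The mean over probe sets gave CD4 -0.0035, CD2 -0.0204 and LCK 0.157, and leaving out the 2 arrays CD4 -0.0312, CD8A -0.0685 and CD2 -0.192. Leaving out each pig in turn gave high minus low estimates of -0.0088 to 0.198 for CD4, -0.0801 to 0.195 for CD8A, -0.108 to 0.112 for CD2 and -0.142 to 0.0247 for LCK. For male minus female it gave -0.166 to 0.0405 for CD4 and -0.174 to 0.0455 for CD2. Of the 28 gene pairs, 14 passed with all pigs, and 7 (without low feed efficiency pig 2) to 15 with a pig left out. Of the same pairs 4 passed with the mean over probe sets and 3 without the 2 arrays, where fewer pigs remain. No paired analysis was possible because the labels give no replicate numbers that pair pigs across groups.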

Other observations

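Differences between T cell genes within a pig spread widely. CD4 minus CD8A, centred on its mean over the pigs, ran from -0.73 to 0.81 in high feed efficiency and from -0.67 to 0.35 in low feed efficiency, so the groups overlapped. CD4 minus CD3E, centred in the same way, was 0.16 ± 0.57 (SD over 6 pigs) in the high group and -0.16 ± 0.22 in the low group. CD8A minus CD8B, the chains of the heterodimer, was -0.02 ± 0.36 in the high group and 0.02 ± 0.17 in the low group. CD3D minus CD3E was 0.03 ± 0.23 and -0.03 ± 0.17. Each shows unequal variation of its 2 probe sets, with no test made.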
